A study of Rattus norvegicus with 6 samples.

Results

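The amino acid transporters of 7 solute carrier families, Slc1a, Slc3a, Slc6a, Slc7a, Slc36a, Slc38a and Slc43a, were followed in the choroid plexus of the rat lateral ventricle before birth, after birth and in adulthood. Members were the genes whose symbol begins with one of these names, except Slc7a8 and Slc1a2, and which had a probe set of their own on the Affymetrix Rat 230 2.0 array. The symbols gave 51 genes of 14217 with a probe set of their own. Slc7a6os was set aside, since it is a neighbour transcribed from the strand opposite Slc7a6 and not a carrier, which left 50 genes. For each gene the probe set brightest on average over the 6 arrays was taken, and the 28 genes whose mean came to 100 units or more in 1 stage or several were tested and are described here. The array annotation supplied the symbols, and the rule used no difference between stages, although the families were picked with earlier results of these data known. Slc6a13, Slc7a11, Slc38a7, Slc7a7 and Slc38a5 had adult means under 100 units and entered through developing stages alone. No member entered through the adult alone. A mean of 100 units or more over the 6 arrays was reached by 26 genes. Plexuses were taken from Sprague-Dawley rats at embryonic day 19 (E19), at postnatal day 2 (P2) and from adult animals, with no treatment named for any stage. Each stage had 2 pools of total RNA with 1 array each, and by the study's methods a pool held 5 animals at E19 and P2 and 3 adult males, whereas the labels speak of 6 to 10 plexuses per batch. No sex is given for the developing animals, and a pool value hides the spread between its animals.

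The choroid plexus is a vascular fold covered by a tight epithelium that secretes cerebrospinal fluid and forms a barrier between blood and this fluid. Amino acids cross such a barrier on carriers of the solute carrier families. Some use the sodium gradient to concentrate their substrate, others exchange one amino acid for another, and the Slc7 light chains work only when bound to a glycoprotein of the Slc3 family. These carriers are known to keep most amino acids far lower in cerebrospinal fluid than in plasma and to feed the growing brain. Because the tissue was measured whole, fewer cells of a type and less RNA per cell cannot be told apart.

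More amino acid transporters were higher than lower before adulthood. Of the 28 members, 13 were above and 3 below the adult at E19, and 13 above and 4 below it at P2. The remaining 12 and 11 did not pass the test, an adjusted p under 0.05 in limma over all 17808 probe sets tested. Of all 10334 genes tested, 31.4% were higher and 25.2% lower at E19, and 28.8% were higher and 21.8% lower at P2, so calls in both directions were common in this tissue. The members called higher made up 46.4% of the 28 at both stages, and those called lower 10.7% at E19 and 14.3% at P2. Among those called higher, Slc6a13 and Slc7a11 at both stages and Slc38a7 at P2 had passed the filter through developing stages alone. The same filter was used for all genes tested. The median log2 fold change against the adult (log2 FC, positive where the developing stage is higher) was 0.66 at E19 and 0.51 at P2 over the members, beside 0.04 and 0.05 over all genes tested. With genes under 100 units in a whole stage held at their bound, the members' medians were 0.33 and 0.46, beside 0.03 at both stages over all genes. The E19 and P2 comparisons share the 2 adult arrays. With each array centred on its median, which moved all values by 0.11 (E19) and 0.12 (P2) on the log2 scale, the split was 12 higher and 6 lower at E19 and 13 higher and 7 lower at P2. Quantile normalization gave 12 higher and 6 lower at P2. The count of 4 lower members at P2 was 2 without P2 pool 2 and 2 without adult pool 1.

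**Figure D1:**
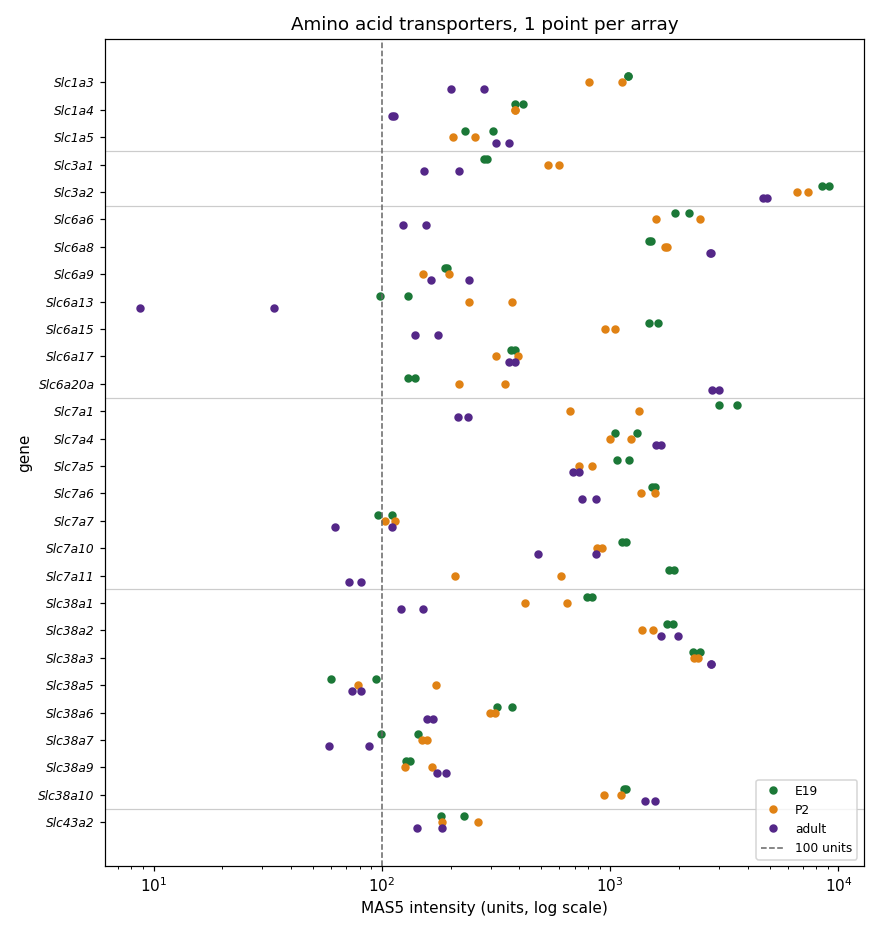
MAS5 intensity of the 28 amino acid transporters on each of the 6 arrays, on a log axis in units, with 2 points per stage (green E19, orange P2, purple adult) and a dashed line at 100 units. Slc7a1, Slc7a11, Slc6a6 and Slc6a15 have their adult points far to the left of their E19 points, and Slc6a20a has them far to the right.

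At both developing stages 12 members were higher than in the adult: the glutamate carrier Slc1a3, the neutral exchanger Slc1a4, Slc38a1, Slc38a6, both Slc3 heavy chains, Slc6a6, Slc6a13, Slc6a15, Slc7a1, Slc7a6 and Slc7a11. Slc6a8 and Slc6a20a were lower at both, and 9 members were called at neither. The highest stage mean lay at E19 for 14 members, at P2 for 6 and in the adult for 8. Over 4-fold differences between stage means were found in 8 members at E19 and 7 at P2, or 7 and 6 with bounds. For calls at both stages, highest stage and over 4-fold differences, the shares of all genes are not given here. Whether these member counts are unusual cannot be read from them. Between E19 and P2 only 1 member was called higher at E19, Slc7a1, and 1 lower, Slc3a1, where 2.56% of all genes were higher and 3.61% lower, and neither call held in all alternatives.

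**Figure D2:**
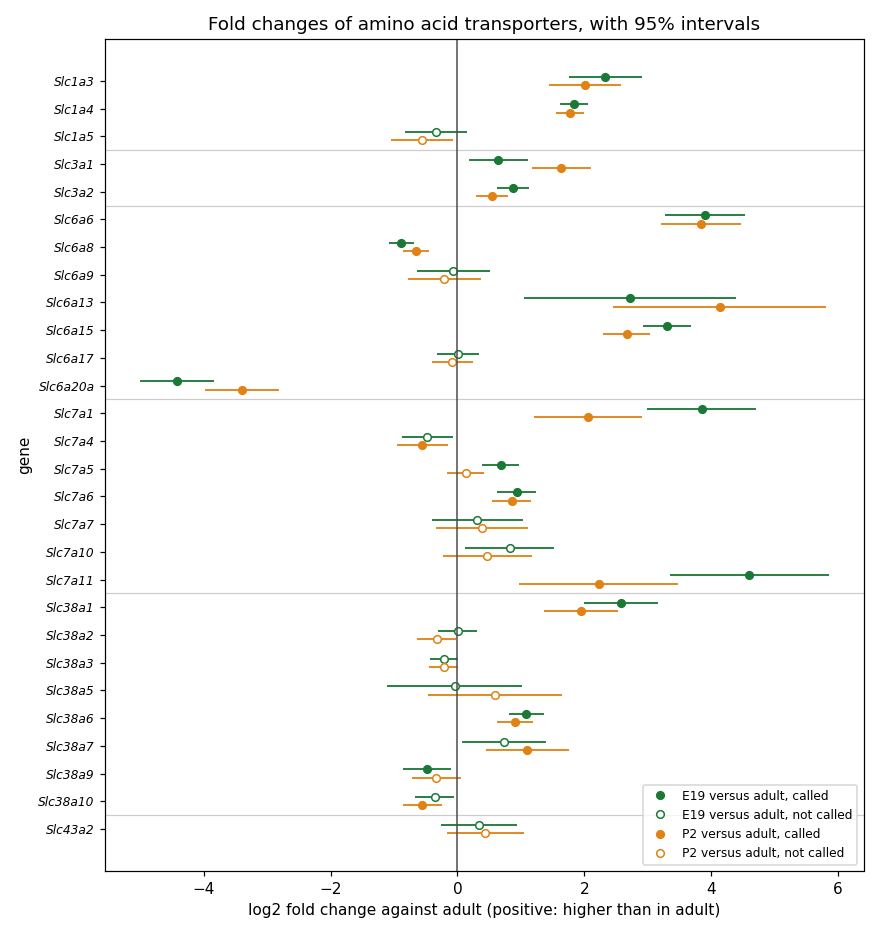
Log2 fold change of each member at E19 (green) and P2 (orange) against the adult, with 95% intervals from limma; filled points passed an adjusted p of 0.05 and open points did not. Slc6a20a at E19, at -4.42, lies farthest to the left. Points of members under 100 units in both adult pools, such as Slc7a11 and Slc6a13 on the right, are fitted values where the text gives a bound.

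Other cells of the plexus and dividing cells moved with the stages as well. All 11 tested endothelium markers were higher at E19 and at P2, their summed level being 11344 to 12097 units in the developing pools and 2212 to 2273 in the adult. All 12 cell cycle genes were higher at both stages too (sum 12286 to 13533, adult 4489 to 4531). Fibroblast and matrix markers were higher in 8 of 10 at each stage and lower in 2 at E19 and 1 at P2 (sum 25180 to 30165, adult 8881 to 9425), and mural cell markers were higher in 6 of 8 at E19, with 1 lower, and 7 of 8 at P2 (sum 3975 to 4307, adult 935 to 976). Of 10 macrophage markers 2 were higher and 2 lower at E19, and 7 higher and 1 lower at P2. Their summed level was nevertheless highest in the adult (3574 to 3648 at E19, 4750 to 6051 at P2, adult 7768 to 7783). Of 6 erythroid markers 5 and then 4 were higher and 1 lower at each stage. Of 5 neural progenitor markers 3 were higher at both stages and 1 lower at E19 (sum 2823 to 3911, adult 2064 to 2333), and of 4 neuron markers 0 and then 2 were higher and 1 lower at each stage. Epithelium markers were lower in 4 of 10 at both stages and higher in 2 at E19 and 1 at P2 (sum 89761 to 97943, adult 118260 to 123820). Among them Ttr, the transthyretin gene that defines this epithelium, had 12750 and 13345 units at E19 and 14847 and 11640 in the adult, whereas Kcnj13 lay under 100 units at every stage. The part of these shifts in the transporter values was not tested.

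Promoter windows of GRCr8 from RefSeq, 250 bases before to 50 after the annotated start, were matched for 22 of the 28 members, some with several starts. They were searched on both strands for TGATGNAA, the core of the amino acid response element through which amino acid shortage is known to raise several transporters. Of all 33469 windows 3.98% held it, a share per window and not per gene. It was found in 3 members, Slc1a4, Slc38a1 and Slc7a1, all among the 12 that were higher at both developing stages. Of those 12, all but Slc6a13 and Slc6a15 had a window, so they formed a large part of the 22 genes searched. A link between motif and stage was not tested. The 3 windows are shown because they hold the motif, each 5′ to 3′ on the gene's strand, with the motif in capitals. Letters are those of the gene's strand, so TTGCATCA in Slc1a4 reads TGATGCAA on the opposite strand. Positions count from the annotated start used for the window. The gene range of Slc38a1 reaches farther 5′, to 129681727, so its window and motif lie inside that range. The range of Slc1a4 reaches to 98761672, inside its window, and its motif lies upstream of that point.
Slc1a4, chr14:98761513-98761812, minus strand, TTGCATCA on the opposite strand at -235 to -228 from the start: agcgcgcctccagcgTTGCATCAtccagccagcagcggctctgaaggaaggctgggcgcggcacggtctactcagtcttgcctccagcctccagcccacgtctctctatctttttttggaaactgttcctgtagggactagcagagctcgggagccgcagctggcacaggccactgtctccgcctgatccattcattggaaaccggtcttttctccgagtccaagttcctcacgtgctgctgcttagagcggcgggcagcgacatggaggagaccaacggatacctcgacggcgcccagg
Slc38a1, chr7:129681352-129681651, minus strand, TGATGCAA at -142 to -135: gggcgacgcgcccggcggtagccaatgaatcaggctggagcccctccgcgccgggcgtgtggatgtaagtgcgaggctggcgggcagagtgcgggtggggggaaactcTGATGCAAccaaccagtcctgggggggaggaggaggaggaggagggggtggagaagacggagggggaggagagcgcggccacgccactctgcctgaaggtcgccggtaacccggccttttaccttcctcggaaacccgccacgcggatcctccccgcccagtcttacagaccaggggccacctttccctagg
Slc7a1, chr12:11664238-11664537, plus strand, TGATGAAA at -30 to -23: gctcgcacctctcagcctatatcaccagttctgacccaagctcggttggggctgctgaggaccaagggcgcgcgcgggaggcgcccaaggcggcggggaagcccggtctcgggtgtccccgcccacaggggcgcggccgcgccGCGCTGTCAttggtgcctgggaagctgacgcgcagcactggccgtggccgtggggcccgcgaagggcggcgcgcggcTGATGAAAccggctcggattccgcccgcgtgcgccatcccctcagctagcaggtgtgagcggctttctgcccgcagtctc
The other capitals in the Slc7a1 window, GCGCTGTCA at -107 to -99, match the antioxidant response element core TGACNNNGC on the opposite strand. That core, searched after the first motif and not overlapping it here, stood in 12.06% of all windows and in 6 of the 22 members: Slc38a2, Slc3a1, Slc3a2, Slc6a6, Slc7a1 and Slc7a7. A match is a run of letters and was not tested for binding.

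Slc7a1 encodes the cationic amino acid transporter CAT1, a carrier of arginine, lysine and ornithine. It measured 2999.8 and 3599 units at E19, 1344 and 670 at P2, against 240 and 217 in the adult. The 3 stages did not overlap and fell in order, although the P2 pools lay far apart. Against the adult Slc7a1 was up 14.4-fold at E19 (log2 FC 3.85, standard error 0.34, adjusted p = 0.000768) and 4.17-fold at P2 (log2 FC 2.06, adjusted p = 0.00651). Its step from E19 to P2 was 3.46-fold (adjusted p = 0.0459) and ranked 26 among the 10334 genes, but it was not called without any 1 of the 6 arrays (log2 1.29 without P2 pool 2 to 2.29 without P2 pool 1, adjusted p = 0.0562 to 0.199). A dimmer probe set of the gene also fell, with stage means of 1116, 392 and 133 units in order of age, and was called at both developing stages against the adult.

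Slc7a4, placed with the cationic transporters by sequence and without a settled transport activity, ran the other way. Its pools had 1055 and 1309 units at E19, 1237 and 997 at P2, against 1590 and 1672 in the adult. The adult pools lay above all developing ones, yet it was called lower at P2 only (log2 FC -0.55, adjusted p = 0.0373) and not at E19 (log2 FC -0.47, adjusted p = 0.0541). The P2 call was lost without P2 pool 2 and without either adult pool (log2 FC -0.40 to -0.59), with no filter and with the replicate number as a block. Slc7a2, Slc7a3 and Slc7a14, the other cationic members, stayed under 100 units in all stage means.

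Slc3a2 encodes the CD98 heavy chain, which carries the light chains Slc7a5, Slc7a6, Slc7a7, Slc7a10 and Slc7a11 to the membrane. It measured 9099 and 8507 units at E19, 7388 and 6599 at P2, against 4679.9 and 4863 in the adult, with no overlap between stages. Slc3a2 exceeded the adult 1.84-fold at E19 (adjusted p = 0.00167) and 1.46-fold at P2 (adjusted p = 0.00902), and both calls held in every alternative run. Slc3a1 encodes the other heavy chain, rBAT, whose usual partner is the cystine and dibasic amino acid carrier Slc7a9. It peaked at P2, with 534 and 599.5 units against 279.7 and 289 at E19 and 217 and 153 in the adult. At P2 Slc3a1 exceeded the adult 3.11-fold (adjusted p = 0.0021), a call that held in every alternative run. At E19 it was 1.56-fold higher (adjusted p = 0.0329), a call lost with no filter, with either other scaling, with 2 stages in the fit, with the replicate number as a block and without any 1 array but adult pool 1 (log2 FC 0.39 without adult pool 2). Its rise from E19 to P2 was 1.99-fold (adjusted p = 0.0449) and was lost without any 1 developing pool (adjusted p = 0.117 to 0.2). Slc7a9 and Slc7a13 lay under 100 units at all stages.

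Among the light chains Slc7a11 changed most. It encodes xCT, which takes up cystine in exchange for glutamate and so feeds glutathione synthesis. Its pools had 1899 and 1808 units at E19, 609.7 and 208 at P2, against 81.1 and 71.7 in the adult. The adult was under 100 units in both pools, so the difference is a bound, at least 18.5-fold at E19 (adjusted p = 0.00144) and at least 4.09-fold at P2 (adjusted p = 0.0171). The P2 pools stood 2.93-fold apart: the log2 FC of 2.22 was 1.45 without P2 pool 1 and 2.999 without P2 pool 2, and the P2 call was lost without either adult pool (adjusted p = 0.0522 and 0.0642) and with no filter. From E19 to P2 the fall was 5.2-fold, rank 13 among all genes, without passing the test (adjusted p = 0.0549; 0.0492 without P2 pool 1).

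Slc7a5, the LAT1 chain for large neutral amino acids, was 1.61-fold higher at E19, with 1213 and 1074 units against 689.6 and 732 in the adult (adjusted p = 0.00617). At P2 its 832 and 728 units overlapped the adult (log2 FC 0.13, 95% interval -0.16 to 0.43). Slc7a6, the chain that exchanges cationic for neutral amino acids with sodium, had 1566 and 1525 units at E19, 1567 and 1365 at P2, against 869 and 752 in the adult. Both developing stages were thus apart from the adult, by 1.91-fold (adjusted p = 0.00251) and 1.81-fold (adjusted p = 0.00411), and Slc7a5 at E19 and Slc7a6 at both stages held in every alternative. Slc7a6os, the neighbour on the other strand, had 639 to 879 units over the 6 arrays and was not called in any comparison.

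Slc7a10, a carrier of small neutral amino acids and D-serine, was not called at either stage, and its result turned on the adult pools. They read 871 and 484 units, against 1170.1 and 1126 at E19 and 879.8 and 924 at P2. Its log2 FC was 0.82 at E19 (adjusted p = 0.0540) and 0.47 at P2 (adjusted p = 0.209). At E19 it was called without either adult pool, at 1.25 without adult pool 1 and 0.40 without adult pool 2, and at P2 without adult pool 1 (0.90, adjusted p = 0.00627). Adult pool 1 also held more of the myelin gene Mbp, 1989 units against 656 in adult pool 2, and the part of this in the Slc7a10 values was not tested. Slc7a7, the other chain for cationic and neutral exchange, stayed near the 100-unit level, at 96.6 to 114 units before adulthood and 111 and 62.1 in the adult. It was not called, and its direction rested on the adult pools. Without adult pool 1 it was higher at E19 (0.73, adjusted p = 0.0182) and P2 (0.80, adjusted p = 0.0168), whereas without adult pool 2 its log2 FC was -0.10 and -0.031, not called. Slc7a12 was among the members under 100 units.

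In the Slc1 family Slc1a3, the glutamate and aspartate carrier GLAST, and Slc1a4, the ASCT1 exchanger of alanine, serine and cysteine, were higher at both developing stages. Slc1a3 had 1197 and 1198 units at E19, 1132 and 812 at P2, against 280.0 and 202 in the adult, or 5.04-fold and 4.03-fold higher (adjusted p = 0.00103 and 0.00206). Slc1a4 had 385 and 415 units at E19, 383.5 and 383 at P2, against 113 and 110.4 in the adult. The Slc1a4 differences were 3.58-fold (adjusted p = 0.000153) and 3.43-fold (adjusted p = 0.000222), with pools that lay close together at every stage. All 4 calls held in every alternative run. Slc1a3 is also known as a carrier of astrocytes, and of 7 tested astrocyte and oligodendrocyte markers 1 was higher and 6 lower at E19, and 1 higher and 3 lower at P2. Their summed level was 8318 to 8346.5 units at E19, 7080.3 to 9371 at P2 and 5003 to 6638 in the adult, most of it before adulthood from the gap junction gene Gja1. Gfap, the defining gene, lay at 11.2 and 10.3 units at E19 and 175 and 112 in the adult, and was under 100 in both P2 pools. Neural progenitors and radial glia are also known to carry Slc1a3. Of the 5 tested progenitor markers 3 were higher at both stages and 1 was lower at E19. Among those higher was Fabp7 (178 and 321 units at E19, 848 and 537 at P2, 97.1 and 44.4 in the adult). The part of such cells in the Slc1a3 values was not tested. A second probe set of Slc1a3, dimmer at 148 units at E19 and 94.7 in the adult as stage means, pointed the same way without passing the test (adjusted p = 0.0628).

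Slc1a5, the glutamine exchanger ASCT2, was not called. Its log2 FC was -0.34 at E19 (95% interval -0.83 to 0.14) and -0.56 at P2 (95% interval -1.05 to -0.08, adjusted p = 0.0591), with 231 and 308 units at E19, 205 and 255 at P2, against 316 and 361 in the adult. The adult pools were the highest, yet an adjusted p above the threshold does not show equal levels. Slc1a1 and Slc1a6, glutamate carriers best known in neurons, stayed under 100 units.

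The Slc6 family held the member with the lowest level before adulthood relative to the adult, and several with the highest. Slc6a20a, the sodium-coupled imino acid carrier that takes up proline and betaine, measured 131 and 139 units at E19, 347 and 217 at P2, against 3004 and 2796 in the adult. Against the adult it was down 21.5-fold at E19 (log2 FC -4.42, standard error 0.23, adjusted p = 0.0002) and 10.6-fold at P2 (log2 FC -3.40, adjusted p = 0.000501). From the bottom its log2 FC at E19 ranked 22 among the 10334 genes. A second probe set agreed in direction, with stage means of 151, 159.5 and 815 units in order of age, and was called at both stages. Slc6a20b, its near copy in rodents, was under 100 units, and cross-hybridization between the copies was not tested.

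Slc6a8, the creatine carrier, was the other member lower at both stages. It had 1505 and 1486 units at E19, 1733 and 1778 at P2, against 2766 and 2751 in the adult. The fall was 1.84-fold at E19 (adjusted p = 0.000826) and 1.57-fold at P2 (adjusted p = 0.00261), small beside Slc6a20a but far outside the spread of the pools. Its dimmer probe set, with stage means of 219, 221 and 455 units in order of age, was called lower at both stages as well.

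Slc6a6 and Slc6a15 were both far above the adult at E19 and P2. Slc6a6 encodes the taurine transporter TauT, and taurine is abundant in the developing brain. It measured 2209 and 1931 units at E19, 2481 and 1587 at P2, against 156 and 123 in the adult, a difference of 14.9-fold at E19 and 14.3-fold at P2 (adjusted p = 0.00033 and 0.000448). The developing stages overlapped each other (log2 difference 0.06, 95% interval -0.57 to 0.69) and neither overlapped the adult. A second Slc6a6 probe set, with stage means of 305, 270.2 and 44.0 units, was called higher at both stages. Slc6a15, the B0AT2 carrier of branched-chain amino acids and proline, fell stepwise, with 1628 and 1477 units at E19, 946 and 1049.5 at P2, against 177 and 139 in the adult. It exceeded the adult 9.88-fold at E19 and 6.35-fold at P2 (adjusted p = 0.000144 and 0.000302), and its E19 to P2 step of 1.56-fold did not pass the test (adjusted p = 0.0682). The calls of Slc6a6, Slc6a15, Slc6a8 and Slc6a20a against the adult held in every alternative.

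**Figure D3:**
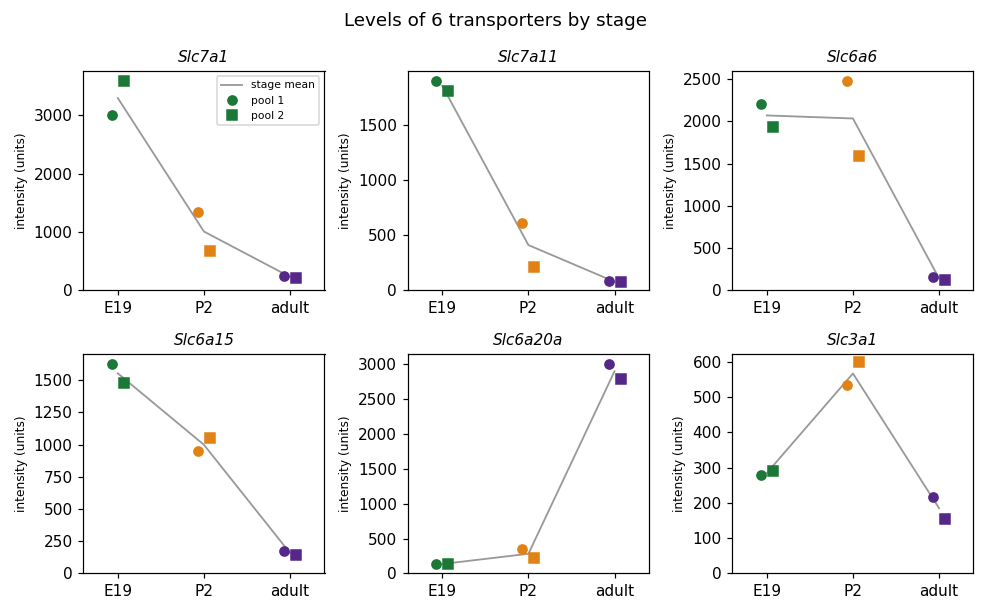
Intensity in units on linear axes from 0 for 6 members by stage, with circles for pool 1, squares for pool 2 and a line through the stage means. Slc7a1, Slc7a11 and Slc6a15 fall stepwise, Slc6a6 stays high through P2, Slc3a1 peaks at P2 and Slc6a20a is high in the adult only.

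Slc6a13, a carrier of GABA and taurine (GAT2), was low in the adult, at 8.71 and 33.7 units, and had 98.3 and 130.4 at E19 and 373 and 242 at P2. As a bound it exceeded the adult at least 3.08-fold at P2 (adjusted p = 0.00599) and at least 1.14-fold at E19 (adjusted p = 0.0195). The fitted log2 FC rests on the dim adult pools, being 4.13 at P2 (3.16 without adult pool 1 and 5.11 without adult pool 2) and 2.72 at E19 (1.75 and 3.70). The E19 call was lost without either E19 pool (adjusted p = 0.0636 and 0.0895), with no filter and with values under 100 units set to 100. Slc6a9, the glycine transporter GlyT1, and Slc6a17, a neutral amino acid carrier known from synaptic vesicles, were not called. Slc6a9 ranged from 151 to 242 units and Slc6a17 from 317 to 394 over the 6 arrays, and each stage of both overlapped the adult. Slc6a13 and Slc6a20a are also known from the leptomeninges. The fibroblast and matrix markers given above were mostly higher before adulthood, as was Slc6a13, whereas Slc6a20a was lower. The part of the marker shift in the values of either gene was not tested. The monoamine carriers Slc6a2, Slc6a3 and Slc6a4 lay under 100 units. So did Slc6a5 and Slc6a11, carriers of glycine and GABA, and Slc6a7, Slc6a14 and Slc6a18, carriers of proline and other neutral amino acids.

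The sodium-coupled neutral carriers of the Slc38 family split by member. Slc38a1, a system A carrier of glutamine and alanine, had 791 and 829 units at E19, 647 and 423 at P2, against 152 and 122 in the adult. It exceeded the adult 5.96-fold and 3.85-fold (adjusted p = 0.000823 and 0.00244), called in every alternative, although the log2 FC of 2.57 at E19 was 1.13 over the mean of its probe sets, 1 of which lay at 10.5 units or less on every array. A second, dimmer probe set was called higher at both stages. Slc38a2, the other system A carrier and itself a known target of amino acid shortage, had 1884 and 1777 units at E19, 1536 and 1380.4 at P2, against 1676 and 1979 in the adult. It was not called. Its log2 FC at E19 was 0.01 (95% interval -0.30 to 0.31), below 0 with median centring, and at P2 -0.32 (95% interval -0.63 to -0.02, adjusted p = 0.0772). Slc38a4, the third of this group, was under 100 units.

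Slc38a3, a system N carrier that moves glutamine and histidine and can run outward, was not called. It had 2303 and 2488 units at E19, 2423 and 2325.5 at P2, against 2756 and 2770.2 in the adult, with a log2 FC of -0.21 at E19 (95% interval -0.43 to 0.01) and -0.22 at P2 (95% interval -0.44 to 0.00). Slc38a5, the other system N carrier, passed 100 units in P2 pool 1 alone (172, beside 78.8 in P2 pool 2), with 94.3 and 59.6 units at E19 and 74.0 and 80.8 in the adult, and was not called.

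Slc38a6, a carrier of less settled function, was higher at both stages, with 319.97 and 373 units at E19, 299 and 313 at P2, against 168 and 158 in the adult. This was 2.12-fold and 1.88-fold (adjusted p = 0.00119 and 0.00259), in every alternative. Slc38a10 ran the other way, with 1179 and 1153 units at E19, 1113 and 936 at P2, against 1577.5 and 1418.5 in the adult. It was lower at P2 (log2 FC -0.55, adjusted p = 0.0162), a call lost without P2 pool 2 (-0.43), without adult pool 1 (-0.48) and with no filter. At E19 its log2 FC was -0.36 (adjusted p = 0.0529), called without either P2 pool (adjusted p = 0.0415). The lysosomal carriers Slc38a7, for glutamine and asparagine, and Slc38a9, the arginine sensor upstream of mTORC1, were each called at 1 stage, and at no stage were both called. Slc38a7 had 144 and 99.6 units at E19, 151 and 158 at P2, against 58.8 and 87.9 in the adult, at least 1.54-fold higher at P2 (adjusted p = 0.0204). That call was lost without either P2 pool, without adult pool 1 (log2 FC 0.81 beside 1.10), with quantile normalization and with no filter, and at E19 the gene was called without adult pool 2 only (1.03, adjusted p = 0.0317). Slc38a9 had 128 and 133 units at E19, 166 and 127 at P2, against 174 and 191 in the adult, lower at E19 (log2 FC -0.48, adjusted p = 0.0432). That call was lost without any 1 E19 or adult pool (adjusted p = 0.0795 to 0.158), with no filter, with an intensity trend and with the replicate number as a block. It was also lost where probe sets were averaged per gene (adjusted p = 0.0503), although Slc38a9 has 1 probe set and its log2 FC did not move. At P2 it was called without P2 pool 1 (-0.52, adjusted p = 0.0351) and with quantile normalization (-0.55). Both lie near the 100-unit level.

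Slc43a2, the LAT4 carrier by which large neutral amino acids leave cells, had 182 to 229 units at E19, 184 to 263 at P2 and 143 to 183 in the adult and was not called (log2 FC 0.34 and 0.44). Its second probe set, also not called, had the opposite sign (-0.15 and -0.18). Its family member Slc43a1 and the proton-coupled carriers Slc36a1, Slc36a2 and Slc36a3 were under 100 units, so that in all 22 of the 50 genes gave no level to test. Next to the 100-unit level, Slc7a7 (109 units at P2) and Slc38a5 (126 at P2) were the lowest members inside it by stage mean. Just outside it lay Slc6a7, Slc7a3 and Slc43a1, with single arrays of up to 101, 85.3 and 81.9 units.

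Some members differed between the P2 pools. Of those at 100 units or more in both P2 pools, 6 of 27 were over 1.5-fold higher in pool 1 (Slc38a1, Slc6a13, Slc6a20a, Slc6a6, Slc7a1 and Slc7a11) and 0 in pool 2, beside 1.78% of 9712 genes higher in pool 1. Of the 6, Slc6a20a was lower than in the adult at P2 and the others were higher. Marker sums in P2 pool 1 were 1.05 times those of pool 2 for endothelium, 1.19 for fibroblast and matrix, 1.27 for macrophages, 1.32 for astrocytes and oligodendrocytes and 0.932 for the cell cycle. Their part in the pool differences was not tested. Of the members at this level, none differed by over 1.5-fold between the E19 pools, and Slc7a10 alone did between the adult pools. With 1 array per pool, the difference between pools was not tested.

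Probe sets other than the brightest could be tested for 7 members. Where the brightest was called against the adult, the other set had the same direction in all 12 comparisons and was called in 10. The exceptions were both of Slc1a3. Over all 21 comparisons of these sets, called or not, 16 had the same direction, and of the other 5 the second set of Slc43a2 gave 3. Averaging the log2 values of all probe sets of a gene kept the calls against the adult of Slc1a3, Slc6a6, Slc6a20a and Slc7a1 with smaller differences. For Slc7a1 the log2 FC was 2.68 at E19 and 1.21 at P2, an average that includes a probe set at 10.23 units or less on every array. For Slc1a3 it was 1.49 and 1.38, for Slc6a20a -3.41 and -2.86, and for Slc6a6 3.36 and 3.24.

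Lists of genes that use, make or sense amino acids held more genes lower than higher before adulthood. Of 92 tested genes on 8 such lists 15 were higher and 32 lower at E19, or 16.3% and 34.8%, beside 31.4% and 25.2% of all genes. At P2 13 were higher and 34 lower, or 14.1% and 37.0%, beside 28.8% and 21.8%. Without E19 pool 1 or 2 the E19 counts were 8 or 7 higher and 21 lower, and at P2 they were 8 higher without either E19 pool or P2 pool 1, and 19 lower without adult pool 2. Enzymes of glutamate, glutamine, aspartate and proline were lower in 6 of 11 at both stages, among them Gls2, a glutaminase, which was down 2.6-fold at E19 and 3.36-fold at P2, and higher in 3 and 2. Amino acid stress response genes were lower in 5 of 11 at E19 and 6 at P2, with 1 and 0 higher. Nupr1, a stress-induced nuclear protein gene, was at least 10.6-fold lower at both stages, and Atf4, the transcription factor that defines the list and binds the element shown above, was 1.55-fold lower at E19 (adjusted p = 0.0044). At P2 Atf4 was not called (log2 FC -0.30, adjusted p = 0.0514). Amino acid carriers outside the 7 families were lower in 6 and 4 of 11 and higher in 2 at both stages, led upwards by Slc16a10, which moves aromatic amino acids and thyroid hormone (at least 10.5-fold at E19), and downwards by the mitochondrial aspartate-glutamate carrier Slc25a12 (2.23-fold at E19).

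The remaining lists were mixed. Enzymes of serine, glycine and one-carbon metabolism were higher in 4 of 11 and lower in 2 at E19, and 3 each way at P2, with the mitochondrial folate enzyme Mthfd1l at least 1.94-fold higher at E19. Of 4 genes for taurine and creatine synthesis 2 were higher and 1 lower at each stage. The 2 were the creatine synthesis enzymes Gatm, at least 2.22-fold up at E19 and 3.99-fold at P2, and Gamt, while the creatine carrier Slc6a8 was lower. Branched chain and arginine enzymes were higher in 1 of 7 and lower in 3 at each stage. Cytosolic aminoacyl-tRNA synthetases were lower in 4 of 19 at E19 and 7 at P2 and higher in 1 (Kars1, 1.42-fold at E19). The lower share of 21.1% at E19 lay near the 25.2% of all genes, and that of 36.8% at P2 above 21.8%. The higher share, 5.26% at each stage, lay under the 31.4% (E19) and 28.8% (P2) of all genes. Genes of amino acid sensing by mTORC1 were lower in 5 of 18 at E19 and 4 at P2, among them Rragd (1.68-fold lower at E19), and higher in 1 and 2. Their lower shares of 27.8% and 22.2% were close to those of all genes, whereas their higher shares of 5.56% and 11.1% lay under those of all genes. Between E19 and P2, 6 genes of the 8 lists were higher at E19 and 2 at P2, counts that were 0 without any 1 of the developing pools.

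**Figure D4:**
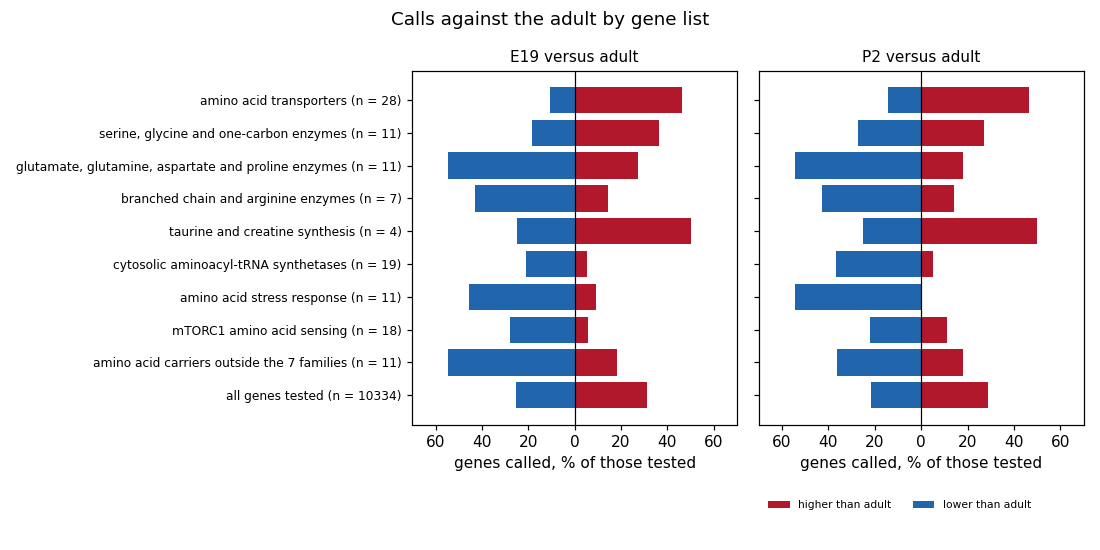
Share of tested genes called higher (red, right) or lower (blue, left) than in the adult, in percent, for the amino acid transporters, 8 lists of amino acid genes and all genes tested, at E19 and at P2. The transporters have the longer bar on the right, at 46.4%, where the enzymes of glutamate metabolism and the stress response list have theirs on the left.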

How the data were processed

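Lateral ventricle choroid plexuses of Sprague-Dawley rats were measured on Affymetrix Rat 230 2.0 arrays, 2 pools per stage at E19, P2 and adult. The deposited values are signal intensity on a linear scale, made by the authors with the MAS5 algorithm of Affymetrix Expression Console, which scales each array. The versions are not given in the sources used here. The table held 31099 probe sets, 57 of them controls, and 50.0 to 53.5% of the others reached 100 units per array. The number of arrays limits the precision.

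Probe sets were named by the platform annotation and RefSeq (20826 with 1 gene, 436 with several, 9780 with none), no family probe set matching several genes. A probe set was tested where a stage mean came to 100 units or more. The model in limma 3.58.1 (R 4.3.3) had a mean for each stage over the log2 values of all 6 arrays, and P values were adjusted by Benjamini and Hochberg over the 17808 probe sets. Residual degrees of freedom were 3 and prior ones 2.15. The pools are separate RNA preparations. Replicate numbers were not used to pair samples, since they are names only in the labels. Deviations of same-numbered arrays correlated at -0.06 to 0.01, which cannot show whether these arrays were processed together. A stage under 100 units on both arrays entered folds as 100 units, which makes them bounds, and 2 such stages gave no fold. Intensities were not compared between genes. The procedure was run on simulated data in which few probe sets changed, unlike here, so that run does not give the error rates in these data.

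Every member tested could be named with its values, the others by name only, and in the lists the defining gene or the largest called change in either direction. Gja1, Mbp, Fabp7 and Gamt were named after their values were seen. The members and lists were chosen with earlier results of these data known. Alternatives changed the filter, scaling, floor, arrays in the fit, spread estimate, pairing, probe set average and threshold, or dropped single arrays, the lone array left being assumed to vary like the other stages. The antioxidant response element was added later. Protein identity between members and 6 unmatched promoters were not analysed here.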

Additional observations from a re-analysis of the deposited data

How the results depend on the processing

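With 2 arrays per stage, differences under 2-fold often depended on single arrays. Of the member calls, 13 of 16 at E19, 13 of 17 at P2 and 0 of 2 between E19 and P2 were kept in every alternative that gave a value. Over all alternatives 844 member log2 fold changes stayed on their side of the threshold, 55 fell below it, 49 passed it and 18 changed sign, none of the 18 being called in the fit reported. Small differences between E19 and P2, such as that of Slc6a6 (log2 0.06), were left out of these counts, and their signs were not followed. The cause of these changes was not tested.

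Members lower at E19 (3) were 6 with median centring, 5 with values under 100 units set to 100 and 5 with an intensity trend. Members lower at P2 (4) were 7 with median centring, 7 with an intensity trend, 2 with no filter, 2 at an adjusted p under 0.01, and 2 to 5 without single arrays. For E19 versus P2 the 1 higher member became 4 with a minimum of 200 units, 4 with values set to 100, 5 with an intensity trend, 0 with no filter, with 2 stages only, with the mean of probe sets and at 0.01, and 0 to 1 without single arrays. The 1 lower member became 2 with a minimum of 200 units, 3 with values set to 100, 2 with an intensity trend, 0 with no filter, with the mean of probe sets and at 0.01, and 0 to 1 without single arrays.

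In the labels the replicate numbers are names only. With the replicate block, 12 members were higher and 3 lower at E19, 13 and 4 at P2, against 0 and 0 between E19 and P2, where the list genes were also 0 and 0. The block lost Slc3a1 and Slc38a9 at E19, Slc7a4 at P2 and both calls between E19 and P2, and it added Slc38a10 at E19 (log2 FC -0.36) and Slc1a5 at P2 (-0.56).

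Of the list genes, 15 higher at E19 became 8 with no filter, 7 at 0.01 and 7 to 14 without single arrays; 32 lower became 21, 20 and 21 to 31. At P2 13 higher became 8 with no filter, 8 with 2 stages only, 7 at 0.01 and 8 to 12 without single arrays; 34 lower became 16 with no filter, 15 at 0.01 and 19 to 25. Between E19 and P2, 6 higher became 0 with no filter, 12 with an intensity trend, 2 with the mean of probe sets, 0 at 0.01 and 0 to 5 without single arrays. The 2 lower became 0 with no filter, 5 with a minimum of 200 units, 1 with median centring, 6 with values set to 100, 1 with 2 stages only, 8 with an intensity trend, 0 with the mean of probe sets, 0 at 0.01 and 0 to 1 without single arrays.

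Among the values counted, signs turned only in members that were not called. Slc38a2 at E19 was -0.10 with median centring and -0.11 to 0.13 without single arrays. Slc38a5 at E19 was -0.38 to 0.29 without single arrays. Slc6a17 at E19 was -0.10 with median centring, -0.12 with quantile normalization, -0.24 with the mean of probe sets and -0.036 to 0.057 without single arrays, and at P2 0.22 with the mean of probe sets and -0.24 to 0.079 without single arrays. Slc6a9 without single arrays was -0.34 to 0.21 at E19 and -0.48 to 0.070 at P2. Slc7a7 at E19 was -0.0031 with values set to 100 and -0.10 to 0.73 without single arrays, and at P2 -0.031 to 0.80. Slc38a1 between E19 and P2 was -0.47 with the mean of probe sets.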
